A study of Mus musculus with 18 samples.

Results

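Ribosomal protein mRNAs were examined in spinal cord RiboTag libraries of Gars P278KY mice, together with Rpl22, the tagged protein of the method, and its paralogue Rpl22l1. The members were the genes whose symbols in the tables read as a cytosolic ribosomal protein of the small subunit (Rps and a number, or Rpsa) or of the large subunit (Rpl and a number, or Rplp0 to Rplp2). The rule used names only and no measured value. It found 84 of the 38924 genes in the tables, 33 of the small and 51 of the large subunit.

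The mice were 8 weeks old, of a mixed background given as B6;CASTxB6.129, and all 18 were labelled Rpl+/-, so that every animal, controls included, had 1 allele coding for haemagglutinin-tagged Rpl22. Cre P278KY mice (3 libraries) were Chat+/- for the Chat-Cre driver and P278KY+/-, carrying 1 mutant allele of Gars, the glycyl-tRNA synthetase gene. Cre WT mice (4 libraries) were Chat+/- and P278KY+/+. NoCre P278KY mice (6 libraries) were Chat+/+ and P278KY+/-, and NoCre WT mice (5 libraries) were Chat+/+ and P278KY+/+. Chat-Cre acts in cholinergic cells, which in the spinal cord include motor neurons but also other cholinergic neurons. Ribosomes were pulled down from whole spinal cord homogenate with an antibody to the tag, and without Cre the tag should stay off, so the NoCre libraries hold the RNA that comes down without it. Whether each library is 1 mouse was not stated in so many words. The labels also give mouse numbers, some of them shared by libraries of the same group, and what these mark is not stated. The p-values measure the spread between these libraries, taken as independent.

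The proteins of the cytosolic ribosome are needed in equal amounts for the most part, and their mRNAs are among the most abundant and most uniformly translated in many cells. Many of these mRNAs begin with a C followed by a run of pyrimidines, the terminal oligopyrimidine tract, through which the mTOR pathway and the binding protein Larp1 adjust their translation as a group. Rpl22 sits on the outside of the large subunit, and Rpl22l1 can take its place; in mice lacking Rpl22, Rpl22l1 is known to increase, and Rpl22 protein is known to bind and repress the Rpl22l1 RNA.

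The starts of the mRNAs the results turn on are shown from RefSeq (GRCm38.p6), 15 bases before and 15 from the annotated start on, with the pyrimidine tract in capitals where a C followed by at least 4 more C or T began within 5 bases of the start, read on the transcribed strand only. Such a tract was found for 29 of the 62 members with an entry (46.8%) and for 21.2% of the 27025 genes in the table. The 6 sequences set Rpl22 beside its paralogue and show examples with a tract.
Rpl22 (chr4:152325711-152325740, plus strand): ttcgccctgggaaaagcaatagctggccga
Rpl22l1 (chr3:28805493-28805522, plus strand): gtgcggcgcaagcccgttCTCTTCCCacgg
Rps6 (chr4:86857353-86857382, minus strand): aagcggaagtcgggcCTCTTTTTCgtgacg
Rpl38 (chr11:114668565-114668594, plus strand): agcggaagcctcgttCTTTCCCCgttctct
Rplp2 (chr7:141447636-141447665, plus strand): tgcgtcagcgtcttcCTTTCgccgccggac
Rpl7a (chr2:26910792-26910821, plus strand): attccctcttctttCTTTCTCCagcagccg
Rpl22l1, Rps6, Rpl38, Rplp2 and Rpl7a had the tract, and neither annotated start of Rpl22 did. A match here is a run of letters near an annotated start, and the start used in these cells was not measured.

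The libraries differed in ways that touch all members. Cre P278KY libraries held 15461440 to 18944769 counts and Cre WT libraries 14659488 to 24028649, while NoCre P278KY libraries held 9876808 to 14450144 and NoCre WT libraries 8177758 to 11480402. Mitochondrial ribosomal RNA made up 2.16 to 4.88% of the Cre P278KY and 1.36 to 3.36% of the Cre WT counts, against 24.2 to 38.6% of the NoCre P278KY and 31.8 to 53.8% of the NoCre WT counts. By the index and sample numbers in their labels the libraries fall into 2 sets, called pools here. Pool 1 held every Cre P278KY library (3), and each pool held 2 of the Cre WT libraries. By Xist against Y-linked transcripts, 2 of the 3 Cre P278KY mice were female, both Cre WT mice of pool 1 were male and both of pool 2 female, and the NoCre mice were male in pool 1 and female in pool 2. Pool and sex thus cannot be told apart in Cre WT or in the NoCre groups. Of the cholinergic markers, 10 of 10 were called higher with Cre in both genotypes, and all 8 oligodendrocyte and all 8 microglial markers lower. Of astrocyte markers 6 of 7, of vascular markers 6 of 6 and of other neuron markers 4 of 5 were called lower in both. Of 6 skeletal muscle markers, 0 were called lower in WT and 5 in P278KY. Of all genes tested, 28.2% were called higher and 31.2% lower in P278KY, and 28.5% and 31.2% in WT.

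Of the 84 members, 79 had enough counts to be tested. Rps12, a small subunit protein with 21 named pseudogenes, was listed at 0 in all 18 libraries; the cause was not tested. Rpl10l and Rps12l2 had 1 and 2 counts over all libraries, Rpl39l had 8 and Rpl3l, the muscle paralogue of Rpl3, had 69. The row named Rpl24 bears an identifier that the GENCODE M21 annotation gives to Zbtb11, a zinc finger gene, so its values are given as those of the row named Rpl24 and say nothing of that ribosomal protein. It is still counted in the totals of members and of the large subunit, and was called higher with Cre in both genotypes. Rps12l1 is a processed pseudogene in that annotation. The values are estimated counts, and 74 of the 84 members had a value that was not whole in at least 1 library, meaning that reads were divided between a gene and similar copies; levels of such members are uncertain to that extent.

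Per length, the members tested ran from a mean over the 18 libraries of 3.65 to 361 transcripts per 1000000 (TPM), with a median of 88.5. The mRNAs at the top were those of Rpl38, Rpl41 and Rps24, and those at the bottom were those of Rpl7l1, a paralogue of Rpl7 that works in ribosome assembly, Rpl12 and Rpl31. Apart from Rpl7l1, these genes code for regular parts of the ribosome.

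Together the members took 0.524, 0.538 and 0.533% of all counts in the Cre P278KY libraries, against 0.281, 0.300, 0.241, 0.249, 0.235 and 0.0743% in the NoCre P278KY libraries. They took 0.533, 0.675, 0.455 and 0.419% in the Cre WT libraries, against 0.224, 0.201, 0.244, 0.139 and 0.223% in the NoCre WT libraries. Every Cre library was above every NoCre library by this share of all counts, mitochondrial ribosomal RNA included. As a share of protein-coding counts the members took 0.660 to 0.833% in Cre P278KY, against 0.198 to 0.544% in NoCre P278KY, without overlap. By that share Cre WT had 0.792 and 1.06% in pool 1 but 0.522 and 0.545% in pool 2, against 0.446 to 0.660% in NoCre WT, so the pool 2 libraries lay inside the NoCre WT range. The sixth NoCre P278KY library stood apart from its group at 0.0743%. On the scale of counts per 1000000 (CPM) after TMM scaling, which sets the trimmed mean of the log ratios between libraries to 0, the summed level was 4697, 4092 and 5648 in Cre P278KY. Cre WT libraries had 6119 and 8146 where they came from pool 1, but 3326 and 3339 where they came from pool 2. The NoCre P278KY libraries ran from 1278 through a median of 2080 to 2598, and the NoCre WT libraries had 2154, 2147, 1984, 3184 and 3090. On this scale too each Cre library lay above each NoCre library, but the pool 2 Cre WT libraries only just so.

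**Figure D1:**
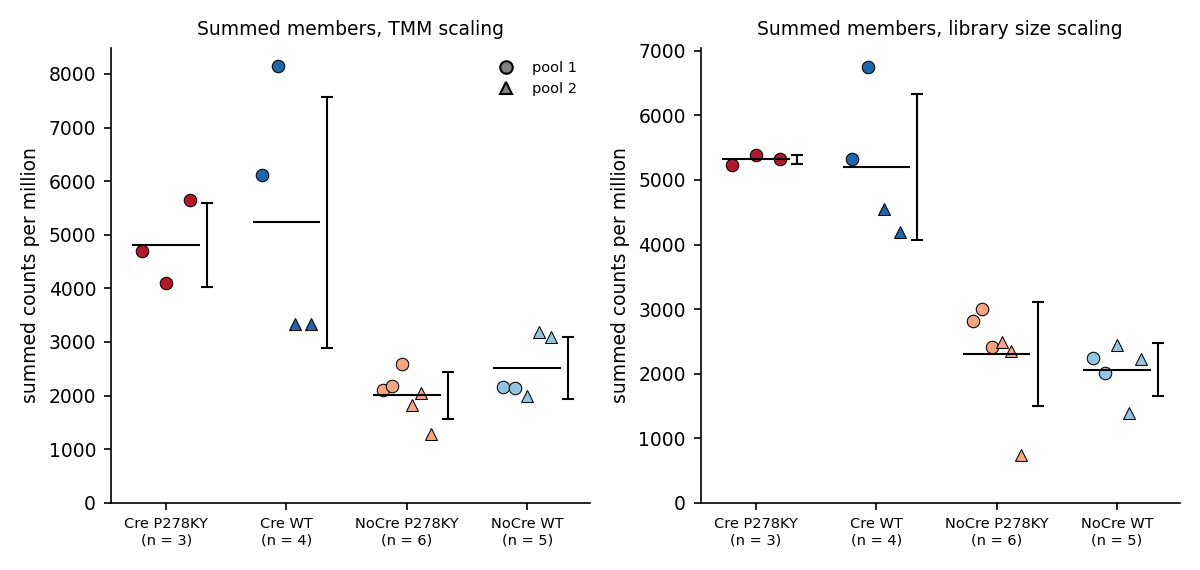
Summed level of the 84 ribosomal protein genes in each library, in CPM with TMM scaling (left) and with library size scaling (right); circles are pool 1, triangles pool 2, lines the group mean and bars the SD. With TMM the Cre P278KY libraries (4092 to 5648) sit between the pool 1 and the pool 2 Cre WT libraries (3326 to 8146). With library size scaling they run from 5239 to 5382 and overlap the pool 1 Cre WT libraries (5330 to 6748). The NoCre libraries are lower with either scaling.

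In P278KY mice, the ribosomal protein mRNAs were higher in the Cre than in the NoCre libraries almost throughout. In the edgeR quasi-likelihood test with Benjamini-Hochberg adjustment over 17133 genes, 69 of the 79 members passed an adjusted p of 0.05 as higher and 0 as lower, where 28.2% of all genes tested were called higher and 31.2% lower. The median log2 fold change of the members was 1.26, against −0.13 over all genes. With paralogues left out, small subunit members (25 of 29 called higher, median 1.28) and large subunit members (42 of 46, median 1.23) had like values. Of the 4 paralogues tested, 2 were called higher. DESeq2 called 63 members higher (26.2% of all genes) and 0 lower. With library size taken without mitochondrial ribosomal RNA, the median of all genes was −0.55 and 34 members were called higher (14.1% of all genes).

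The members with the smallest adjusted p there were Rpl19, Rpl6, Rps15a, Rpl8 and Rps7. Rpl19, a large subunit protein that bridges to the small subunit, had 124.3, 107.6 and 150.3 CPM in Cre P278KY, against a lowest of 18.6, a median of 34.9 and a highest of 36.8 CPM in NoCre P278KY. The groups did not overlap, and the log2 fold change was 1.98 ± 0.28 (SE; adjusted p = 6.5e-06). Rps7, a small subunit protein that joins early in assembly, had 50.1, 47.8 and 62.3 CPM in Cre P278KY, against 10.3 to 19.4 CPM in NoCre P278KY, a log2 fold change of 1.64 ± 0.26. The highest changes were those of Rps16 (2.2 ± 0.74), Rpl27 (2.17 ± 0.43) and Rpl38 (2.08 ± 0.52). Rps16 rests on few reads, with 6.25, 6.60 and 10.3 CPM in Cre P278KY and 0.00 to 3.65 CPM in NoCre P278KY.

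In WT mice the same contrast gave 60 of 79 members called higher and 0 lower, where 28.5% of all genes were called higher and 31.2% lower. The members' median log2 fold change was 1.16, against −0.12 over all genes. With paralogues left out, 20 of 29 small subunit members were called (median 1.11), and 38 of 46 large subunit members (median 1.2). Of the 4 paralogues tested, 2 were called higher. DESeq2 called 58 members higher (26.1% of all genes) and 0 lower. The smallest adjusted p belonged to Rpl7a, Rpl22l1, Rpl11, Rpl6 and Rps7. Rpl7a, a large subunit protein, had 182.6 and 236.6 CPM in pool 1 and 122.5 and 120.0 CPM in pool 2 of Cre WT, against 58.5, 49.8, 52.2, 61.7 and 68.3 CPM in NoCre WT. Every Cre WT library was above every NoCre WT library, and the log2 fold change was 1.51 ± 0.21 (SE; adjusted p = 3.6e-06).

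The WT enrichment was not even over the pools. Within pool 1, 73 of 79 members were called higher (29.2% of all genes) with a median of 1.83. Within pool 2, 6 of 80 were called higher (14.0% of all genes) with a median of 0.27, against −0.07 over all genes there. Those 6 were Rpl15, Rpl22l1, Rpl7a, Rpl4, Rpl11 and Rpl6. With library size scaling in pool 2 the median was 1.16, against 0.66 over all genes, and 2 members (8.91% of all genes), Rpl15 and Rpl22l1, were called. Leaving out the second Cre WT library left 41 members called higher (26.0% of all genes), the lowest count over the libraries left out in turn. In P278KY mice, whose Cre libraries were all of pool 1, 68 of 79 members were called within that pool (30.0% of all genes) with a median of 1.10.

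Both genotypes together, 55 members were called higher with Cre in both, 14 in P278KY alone, 5 in WT alone and 5 in neither. Of all genes tested, 28.2% were called higher in P278KY and 28.5% in WT. The shares of all genes called in both or in 1 alone were not counted. A gene called in 1 genotype alone is not thereby shown to differ between them; the test of that difference is given further on. The 5 called in neither were Rpl5, Rps27, Rps29, Rpl7l1 and the pseudogene Rps12l1, and the values of Rpl5 and Rps27 were the lowest of all members in WT. Rpl5, which carries the 5S ribosomal RNA into the large subunit together with Rpl11 and with it restrains Mdm2, had 19.1, 27.3 and 23.7 CPM in Cre P278KY, against 19.9 to 35.0 CPM in NoCre P278KY. It had 22.9, 13.8, 18.7 and 10.2 CPM in Cre WT, against 25.6, 28.3, 19.4, 18.7 and 5.17 CPM in NoCre WT. The groups overlapped, with log2 fold changes of −0.10 ± 0.34 in P278KY and −0.25 ± 0.33 in WT (SE; adjusted p = 0.807 and 0.522). The counts of Rpl5 were not whole in any of the 18 libraries, and 1 named pseudogene of it exists.

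Rpl11, its partner in the same particle, was 45.8, 54.7 and 57.0 CPM in Cre P278KY, against 13.9 to 29.1 CPM in NoCre P278KY. It was 67.8, 90.3, 46.1 and 49.7 CPM in Cre WT, against 19.9, 14.1, 20.1, 23.3 and 25.2 CPM in NoCre WT. Neither pair of groups overlapped, and the log2 fold changes were 1.15 ± 0.24 in P278KY and 1.63 ± 0.24 in WT (SE; adjusted p = 0.000339 and 5.5e-06). Rps27, a small subunit protein with a zinc finger, had only 1.37 to 4.73 CPM in Cre P278KY, against 1.04 to 4.92 CPM in NoCre P278KY. Its paralogue Rps27l, which p53 is known to induce, had 15.2, 10.5 and 17.4 CPM in Cre P278KY and 13.2, 14.4, 5.12 and 6.02 CPM in Cre WT. In NoCre P278KY it had 0.871 to 4.99 CPM and in NoCre WT 2.88 to 4.65 CPM. Rps27l was thus higher with Cre in every library, by a log2 fold change of 1.99 ± 0.37 in P278KY and 1.32 ± 0.38 in WT (SE; adjusted p = 0.000126 and 0.0047).

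**Figure D2:**
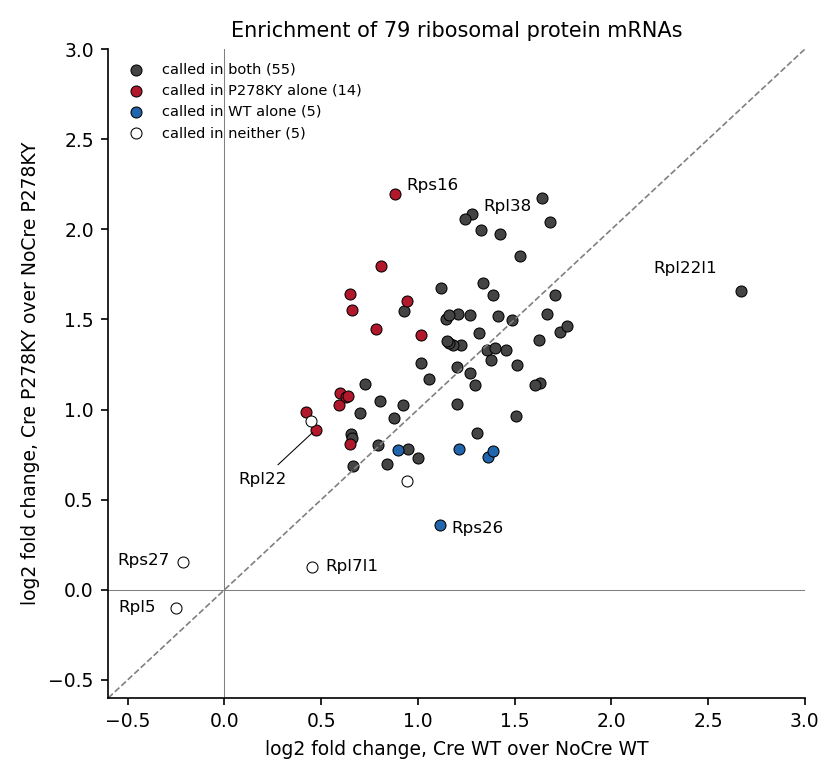
Log2 fold change of Cre P278KY over NoCre P278KY (vertical) against that of Cre WT over NoCre WT (horizontal) for the 79 members tested; colours give in which genotype a member was called higher, and the dashed line marks equal values. Most points lie above 0 on both axes, Rpl5 is below 0 on both, Rps27 is near 0, and Rpl22l1 is the farthest to the right at 2.67.

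Members of the other functional groups followed the same pattern. Each count called here stands against 28.2% of all genes called higher in P278KY and 28.5% in WT. The P stalk proteins Rplp0, Rplp1 and Rplp2, which bring the translation factors to the ribosome, were all called higher in P278KY (log2 fold changes of 1.14, 1.52 and 2.06) and in WT (1.29, 1.16 and 1.24). Rplp2 had 121.6, 81.9 and 164.9 CPM in Cre P278KY, against 17.8 to 42.2 CPM in NoCre P278KY. In Cre WT it had 159.2 and 171.2 CPM in pool 1 and 43.3 and 51.5 CPM in pool 2, against 33.1, 36.2, 23.5, 76.8 and 56.0 CPM in NoCre WT. With TMM scaling the pool 2 Cre WT libraries thus fell inside the range of the NoCre WT libraries. Within pool 2 the fold change of Rplp2 was then −0.15 on the log2 scale (adjusted p = 0.819). With library size scaling the pool 2 Cre WT libraries had 59.2 and 64.6 CPM, above the 29.0 to 40.4 CPM of NoCre WT. In TPM they had 337.7 and 294.4, above the 125.0 to 175.3 of NoCre WT. Of the proteins that are ubiquitinated when ribosomes collide, Rps2, Rps3, Rps10 and Rps20, 4 of 4 were called higher in both genotypes, with log2 fold changes of 0.87 to 1.71 in P278KY and 0.88 to 1.34 in WT. Rps27a, made as a fusion with ubiquitin, was also called in both (1.28 ± 0.38 in P278KY and 1.38 ± 0.37 in WT). Rps6, the substrate of S6 kinase, gave 0.78 ± 0.41 in P278KY (adjusted p = 0.105) and was called in WT (1.21 ± 0.40).

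At the rim of the exit tunnel, Rpl4, Rpl17, Rpl31 and Rpl39 were measured beside Rpl22. Rpl4 had 159.5, 177.7 and 185.8 CPM in Cre P278KY, against 87.1 to 121.3 CPM in NoCre P278KY. In Cre WT it had 204.2, 281.6, 209.9 and 185.1 CPM, against 104.8, 120.0, 122.0, 103.7 and 98.7 CPM in NoCre WT. Rpl4, whose counts were whole in every library and so not shared with copies, was higher with Cre in every library of both genotypes, by 0.73 ± 0.16 and 1.00 ± 0.16 on the log2 scale (SE; adjusted p = 0.000724 in P278KY and 1.8e-05 in WT). Rpl39, the smallest of the rim proteins, rose by 1.47 ± 0.35 in P278KY and 1.77 ± 0.35 in WT. Rpl10, which takes part in the joining of the subunits, gave 0.74 ± 0.36 in P278KY (adjusted p = 0.0796) and was called in WT (1.36 ± 0.35). Rpl12, of the GTPase centre, gave 0.77 ± 0.38 in P278KY and 1.39 ± 0.37 in WT (adjusted p = 0.0811 and 0.00295). Of the 18 members mutated in human Diamond-Blackfan anaemia, 13 were called higher in P278KY and 14 in WT, with medians of 1.35 and 1.19. Of the 4 X-linked members 3 were called in each genotype. Both lists stand against 28.2% of all genes called higher in P278KY and 28.5% in WT.

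Most genes of related machinery outside the rule were also called higher with Cre. Of the 76 mitochondrial ribosomal proteins, 68 were called higher and 1 lower in P278KY (median 1.40), and 67 higher and 1 lower in WT (median 1.52). Of 45 factors of ribosome assembly and ribosomal RNA transcription, 32 were called higher and 2 lower in P278KY (median 0.90), and 26 higher and 2 lower in WT (median 0.68). The cytosolic members' values were thus near those of the mitochondrial list. Of the 221 named processed pseudogenes of the members 38 could be tested; 13 were called higher and 6 lower in P278KY and 14 higher and 6 lower in WT. Each of these counts stands against the same shares of all genes as above, 28.2% higher and 31.2% lower in P278KY and 28.5% and 31.2% in WT. Adding the pseudogene counts to their parents gave 71 of 80 members called higher in P278KY (28.3% of all genes) and 62 of 80 in WT (28.5%).

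Rpl22 was not among the strongly enriched members. It lies on chromosome 4 (GENCODE M21, GRCm38; 152325742 to 152334071, plus strand), and gene counts cannot tell its tagged from its untagged transcripts. Rpl22 had 34.7, 34.6 and 34.6 CPM in Cre P278KY, against a lowest of 15.0, a median of 17.9 and a highest of 25.0 CPM in NoCre P278KY. It had 38.9 and 43.1 CPM in pool 1 and 23.6 and 25.2 CPM in pool 2 of Cre WT, against 16.5, 28.4, 21.6, 25.7 and 25.9 CPM in NoCre WT. With library size scaling the pool 2 Cre WT libraries had 32.3 and 31.7 CPM. That was above the 17.1, 26.6, 26.5, 11.2 and 18.7 CPM of NoCre WT. In TPM they had 68.7 and 54.7, inside the NoCre WT range of 26.8 to 72.5. With TMM scaling the P278KY groups did not overlap, while the pool 2 Cre WT libraries lay inside the NoCre WT range. The log2 fold change was 0.89 ± 0.22 in P278KY (SE; adjusted p = 0.00204) and 0.47 ± 0.22 in WT (adjusted p = 0.0676). In WT it was 0.90 ± 0.26 within pool 1 (adjusted p = 0.00681) and −0.01 ± 0.31 within pool 2 (adjusted p = 0.987). By size of change Rpl22 ranked 61 of 79 in P278KY and 74 of 79 in WT.

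Rpl22l1, by contrast, had the highest enrichment of any member in WT. The gene lies on chromosome 3 (28805436 to 28807424, plus strand), has no named pseudogene, and its counts were not whole in 5 libraries. Rpl22l1 had 14.7, 11.9 and 13.2 CPM in Cre P278KY, against a lowest of 1.57, a median of 4.01 and a highest of 6.41 CPM in NoCre P278KY. In Cre WT it had 31.9 and 39.5 CPM in pool 1 and 11.7 and 15.8 CPM in pool 2, against 5.58, 3.04, 4.57, 2.39 and 3.50 CPM in NoCre WT. Every Cre library was above every NoCre library in both genotypes. The fold was 3.15 in P278KY (log2 1.66 ± 0.36, SE; adjusted p = 0.000599), rank 12 of 79, and 6.36 in WT (log2 2.67 ± 0.37; adjusted p = 3.7e-06), rank 1 of 79. In WT the log2 fold change was 3.05 ± 0.36 within pool 1 and 1.95 ± 0.54 within pool 2 (adjusted p = 1.5e-06 and 0.0165), so it was past the threshold in each pool.

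Set against each other per length, Rpl22l1 over Rpl22 came to a TPM ratio of 0.934, 0.708 and 0.717 in the Cre P278KY libraries. In the Cre WT libraries it was 1.70, 1.50, 1.17 and 1.47. In the NoCre libraries it ran from 0.216 to 0.546 in P278KY and from 0.130 to 0.529 in WT. The 4 Cre WT libraries, of both pools, had more Rpl22l1 than Rpl22 transcripts, the 3 Cre P278KY libraries had fewer, and neither range touched the other or the NoCre range. The gap did not come from the same gene in each pool. In mean log2(CPM + 0.5), Cre P278KY minus pool 1 Cre WT was −1.32 for Rpl22l1 and −0.17 for Rpl22. Minus pool 2 Cre WT it was −0.07 for Rpl22l1 and 0.48 for Rpl22. The transcripts differ in length (489 and 753 bases), and the part of length in the ratio was not tested. A ratio within a library does not depend on how libraries are scaled. It was formed after the values of the pair had been seen and is given as a description, without a test.

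**Figure D3:**
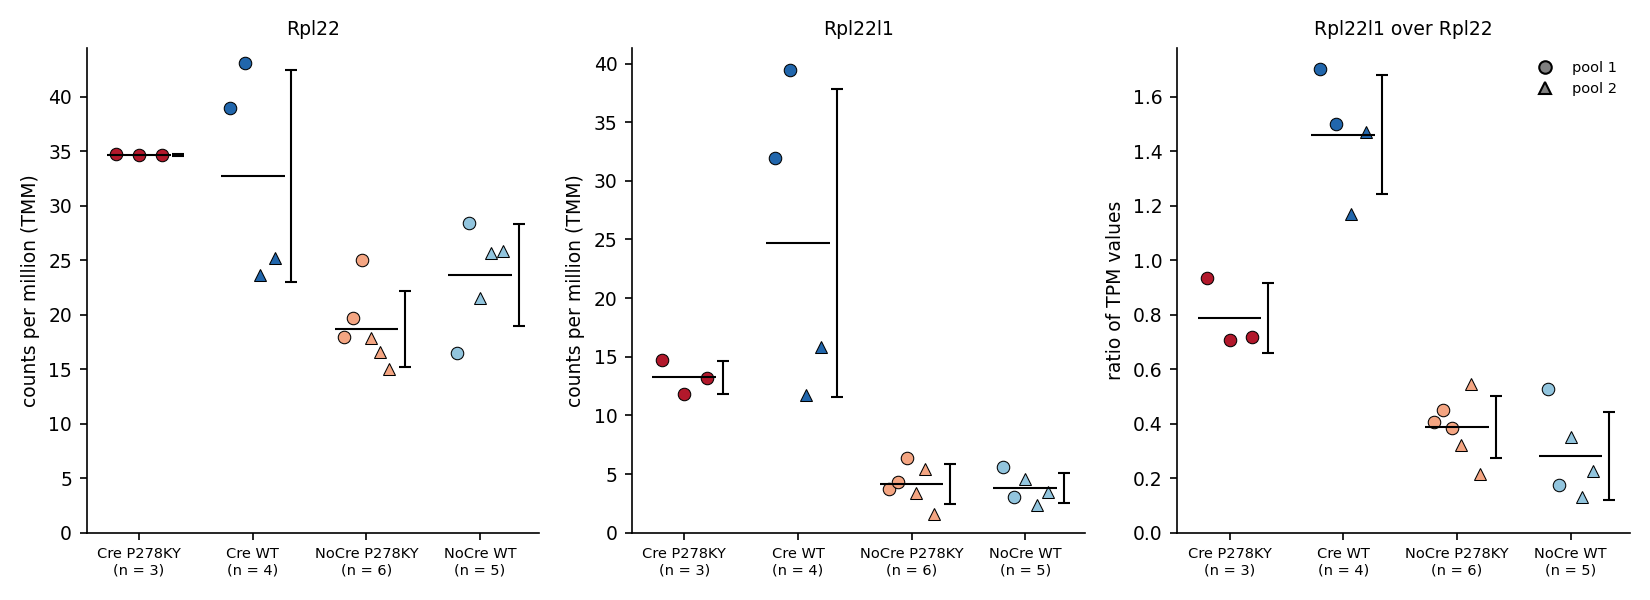
Rpl22 (left) and Rpl22l1 (middle) in CPM with TMM scaling, and the ratio of their TPM values (right), in every library of the 4 groups; circles are pool 1, triangles pool 2, lines the group mean and bars the SD. The ratio lies between 0.708 and 0.934 in Cre P278KY, between 1.17 and 1.70 in Cre WT, and at 0.546 or below in the NoCre libraries.

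The question of whether mutant Gars changed ribosomal protein mRNAs on tagged ribosomes was put to the 3 Cre P278KY and 4 Cre WT libraries, fitted alone over 14717 genes and scaled among themselves. Among the 79 members 0 were called higher and 0 lower by edgeR, where 1.22% of all genes were called higher and 1.11% lower. At an unadjusted p under 0.05, 1 member was higher (Rps15a) and 2 lower (Rpl29 and Rpl22l1); DESeq2 called 0 in either direction (2.89% of all genes higher, 3.71% lower), with 1 higher and 3 lower before adjustment. The median log2 fold change was −0.12, against −0.01 over all genes. Missing the threshold does not show that the levels were alike: Rpl29 gave −1.07 ± 0.36 (adjusted p = 0.187), Rps26 −0.94 ± 0.43 (0.320), Rpl22l1 −0.85 ± 0.37 (0.301), Rpl5 0.54 ± 0.27 (0.378) and Rps27l 0.62 ± 0.36 (0.450).

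This comparison turned on which Cre WT libraries were used. Of the 79 members, 76 had a higher mean in the pool 1 than in the pool 2 Cre WT libraries, by a median of 1.04 on the log2(CPM + 0.5) scale, where all genes had a median of −0.05 (TMM scaling). With library size scaling, chosen after seeing the data, it was 69 members and a median of 0.52, where all genes had −0.52. The Cre P278KY mean lay between these pool means for 64 members. It was below the pool 1 Cre WT mean for 72 and above the pool 2 Cre WT mean for 70. With library size scaling these counts were 49 between, 63 below and 62 above. Against pool 1 Cre WT, the same pool as all Cre P278KY libraries, 7 members were called lower (4.81% of all genes) and 0 higher (4.3%), with a median of −0.52. Against the pool 2 Cre WT libraries, an alternative chosen after seeing the data, 17 were called higher (3.47% of all genes) and 0 lower (5.82%), with a median of 0.53. With pool as a term in the fit, 14 were called lower (5.95% of all genes). As pool 2 held no Cre P278KY library, that fit again sets Cre P278KY against the pool 1 Cre WT libraries, with the same median of −0.52. It is thus not a separate result.

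The 7 called lower within pool 1 were Rpl22l1, Rpl36, Rps20, Rps26, Rpl12, Rpl41 and the pseudogene Rps12l1. Rpl22l1 had 16.4, 13.0 and 14.0 CPM in Cre P278KY, against 34.2 and 39.6 CPM in pool 1 and 12.6 and 18.1 CPM in pool 2 of Cre WT. Its log2 fold change was −1.35 ± 0.22 within pool 1 (SE; adjusted p = 0.00377) and −0.08 ± 0.23 against pool 2 (adjusted p = 0.870). Rpl36, a small protein of the large subunit, had 38.2, 38.3 and 55.1 CPM in Cre P278KY, against 88.5 and 123.8 CPM in pool 1 and 38.7 and 34.7 CPM in pool 2 of Cre WT. It gave −1.28 ± 0.23 within pool 1 (SE; adjusted p = 0.00707), and its Cre P278KY values overlapped those of pool 2. With library size scaling within pool 1, these 2 were the members still called lower (1.32% of all genes). Rpl22 had 38.8, 37.9 and 36.8 CPM in Cre P278KY, against 41.7 and 43.3 CPM in pool 1 and 25.4 and 28.8 CPM in pool 2 of Cre WT, and was called in neither direction in any of these fits.

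**Figure D4:**
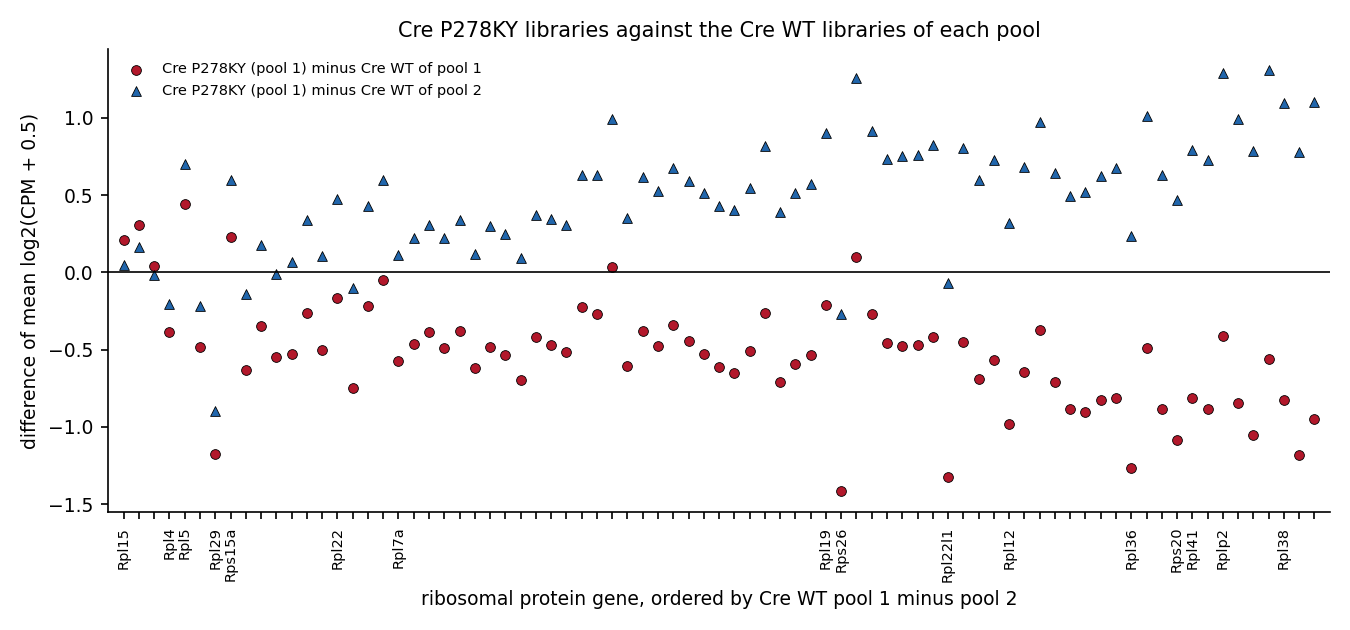
For each of the 79 members, the mean log2(CPM + 0.5) of the 3 Cre P278KY libraries minus that of the 2 pool 1 Cre WT libraries (circles) and minus that of the 2 pool 2 Cre WT libraries (triangles), ordered by the difference between the Cre WT pools, with some of the members named in the text labelled. The circles lie below 0 for 72 members and the triangles above 0 for 70.

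Other quantities moved with these pools. The summed cholinergic markers were 2070, 1992 and 1661 CPM in Cre P278KY, against 2982 and 2617 CPM in pool 1 and 1961 and 1766 CPM in pool 2 of Cre WT. The summed oligodendrocyte markers were 697, 780 and 1755 CPM in Cre P278KY, against 745 and 1179 CPM in pool 1 and 3600 and 4073 CPM in pool 2 of Cre WT. None of the 8 oligodendrocyte markers was at 0 over the Cre libraries. The pool 2 Cre WT libraries thus had the highest oligodendrocyte marker sums and the lowest summed ribosomal protein CPM of the Cre libraries. In TPM that order did not hold, with sums of 12700, 13920 and 11910 in Cre P278KY, against 12330 and 14420 in pool 1 and 13020 and 10020 in pool 2 of Cre WT. The part of either, or of sex, in the members' values was not tested. In bulk samples, fewer cells of a type and less RNA per cell cannot be told apart.

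The members that differed most between the Cre WT pools mostly had short mRNAs. Across the 79 members, the pool 1 minus pool 2 difference in Cre WT (CPM scaled over all 18 libraries) and the transcript length in the tables had a Spearman's rho of −0.622, and across all 17133 genes tested −0.403. Rpl38 (2.02), Rplp1 (1.93) and Rplp2 (1.79) were among the members with a large log2 difference, while Rpl4 (0.28), Rpl5 (0.35) and Rpl15 (−0.07) had small ones. Rps27, with the shortest transcript at 255 bases, went against this at 0.35. So did the longer Rpl3 (1361 bases, 1.52) and Rpsa (1861 bases, 1.42). Within NoCre P278KY the difference between the same pools had a rho of −0.206 with length over the members, and within NoCre WT 0.34, where 14 of the 79 members were higher in pool 1. The points include the row named Rpl24, with the longest transcript at 4379 bases and a difference of −0.04 in Cre WT. The points share libraries, and genes are not independent replicates.

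**Figure D5:**
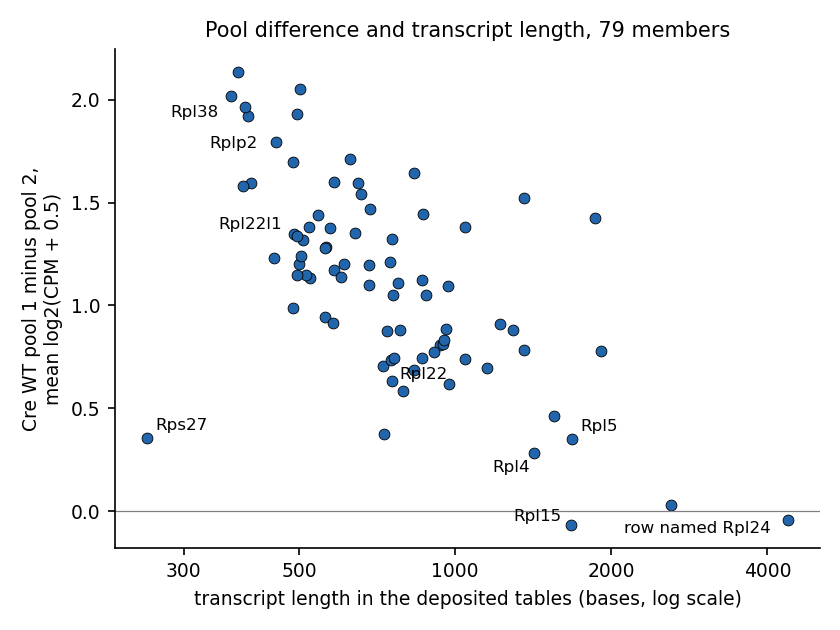
Difference of mean log2(CPM + 0.5) between the 2 pool 1 and the 2 pool 2 Cre WT libraries for each of the 79 members, against transcript length in bases on a log scale. Members with short transcripts mostly have the larger differences (Spearman's rho −0.622), with exceptions such as Rps27 at 255 bases and Rpsa at 1861 bases.

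Whether the Cre enrichment itself differed between genotypes was tested as an interaction in the fit of all 18 libraries. Of the 79 members 0 were called in either direction by edgeR, where 0.344% of all genes were called higher and 0.309% lower; at an unadjusted p under 0.05, 1 was higher and 0 lower, and DESeq2 gave 0 after adjustment (0.887% of all genes higher, 1.34% lower) and the same counts before it. The member higher before adjustment was Rps9, a small subunit protein of the messenger entry side, with a difference of 0.99 ± 0.42 on the log2 scale (adjusted p = 0.357). Rpl22l1 gave −1.01 ± 0.53 (adjusted p = 0.504), the lowest of all members, and Rpl22 0.42 ± 0.32 (0.684). Within pool 1, 5 members, among them Rpl36 and Rpl39, were called lower (1.2% of all genes), with a median of −0.69 over the members, and with library size scaling there 0 were (0.169% of all genes).

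In the libraries without Cre, P278KY and WT differed in 0 of the 79 members by edgeR, where 0.0% of all genes were called higher and 0.0233% lower. At an unadjusted p under 0.05, 0 members were higher and 7 lower, and DESeq2 gave 0 after adjustment (0.0292% of all genes higher, 0.134% lower) and 0 higher and 12 lower before it. The members' median was −0.25, against −0.01 over all genes. With library size scaling the median was 0.35 over all genes and 0.21 over the members, so the members' median was below that of all genes with either scaling. Within pool 1 it was 0.13, against 0.05 over all genes, and within pool 2 −0.63, against −0.04 over all genes. Rps16 had the lowest value at −1.66 ± 0.68 (adjusted p = 0.726), from 0.00 to 3.65 CPM in NoCre P278KY, against 5.15, 6.58, 0.50, 1.99 and 12.3 CPM in NoCre WT. Rpl22l1 was 1.57 to 6.41 CPM in NoCre P278KY, against 2.39 to 5.58 CPM in NoCre WT, a log2 fold change of 0.12 ± 0.34 (adjusted p = 0.952).

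Of 18 translation and related factors whose mRNAs are known to carry the same pyrimidine tract, 16 were called higher with Cre in P278KY and 15 in WT, with medians of 1.11 in each. Of all genes tested, 28.2% were called higher in P278KY and 28.5% in WT. In the comparison of Cre P278KY with Cre WT, 1 of the 18, Eef1a1, was called higher (1.22% of all genes). Eef1a1, the elongation factor that delivers aminoacyl-tRNA and is replaced by Eef1a2 in mature neurons and muscle, had 375.7, 334.1 and 379.0 CPM in Cre P278KY, against 152.9, 197.5, 166.9 and 214.7 CPM in Cre WT. Each Cre P278KY library lay above every Cre WT library of both pools. The log2 fold change was 1.01 ± 0.19 (SE; adjusted p = 0.0214), and that of the interaction was 1.10 ± 0.23 (adjusted p = 0.0208). In WT, Eef1a1 was lower with Cre than without, by a log2 fold change of −0.76 ± 0.16 (adjusted p = 0.000386), with 183.0 ± 28.1 CPM in Cre WT (SD, n = 4) and 309.8 ± 37.0 CPM in NoCre WT (SD, n = 5).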

How the data were processed

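RNA from anti-HA immunoprecipitates of mouse spinal cord was sequenced in 18 libraries. Reads were aligned with Bowtie2 2.2.0 and quantified with RSEM 1.2.12, per the submitters' processing notes. The build of the genome is not given in the sources used here. The deposited tables hold, per gene, the expected count (estimated by the authors, not normalized) and the TPM (normalized by the authors for length and depth). Expected counts were rounded to whole numbers. The main test was edgeR 4.0.16 (R 4.3.3): TMM scaling, filterByExpr with a minimum count of 10, glmQLFit with robust estimation, Benjamini-Hochberg adjustment over all genes tested, called at 0.05. The contrasts with NoCre libraries came from 1 fit of 18 libraries (17133 genes), and Cre P278KY over Cre WT from the 7 Cre libraries alone (14717 genes). DESeq2 1.42.0, other scalings, no filter, pool terms, single pools and left-out libraries were the alternatives. Scripts were tested on simulated data. The members and gene lists were chosen with earlier results of these data known. Named members were Rpl22, Rpl22l1, the P stalk, paralogues, members of fixed role lists and, per comparison, those of smallest adjusted p and extreme fold change. TPM values keep no depth, so no interval was derived from them; counts set the precision. Some results are not reported here.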

Additional observations from a re-analysis of the deposited data

Results flagged for a closer look

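In groups of 4 to 6 libraries, a library was marked where its gap to the next covered more of the group's range than Dixon's 95% critical value allows, on a log2 scale. Over 138 group and gene combinations 15 were marked, where chance gives about 1 in 20. Of these, 13 concerned the sixth NoCre P278KY library. It was the lowest of its group for Rpl10 (4.18 CPM), Rpl11 (13.9 CPM), Rpl19 (18.6 CPM), Rpl27 (3.48 CPM), Rpl6 (36.4 CPM), Rpl7a (35.0 CPM), Rps2 (6.09 CPM), Rps26 (1.57 CPM), Rps27l (0.871 CPM), Rps3 (16.0 CPM), Rps4x (16.0 CPM) and Rps7 (10.3 CPM), and for the members' summed level with library size scaling (743 CPM). Without that library, 68 of 80 members were called higher in Cre P278KY over NoCre P278KY, with a median log2 fold change of 1.19. Of all genes in that fit, 10051 of 17089 were called in either direction. The other two marks were Rpl5 in the fifth NoCre WT library, at 5.17 CPM the lowest of its group, and Rpl7l1 in the second, at 9.10 CPM the highest.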

How the results depend on the processing

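The direction of the members' median held under every alternative run for both enrichment contrasts. The count of members called higher moved by over 1.5 times in WT without mitochondrial ribosomal RNA in the library size (28; 14.6% of all genes), within pool 2 (6) and within pool 2 with library size scaling (2), and in P278KY without mitochondrial ribosomal RNA (34). With no filter on low counts 1 member was called lower in WT (22.8% of all genes). Leaving out each library in turn gave 41 to 65 members called higher in WT and 56 to 70 in P278KY, and 0 in either direction in the other 3 comparisons. In P278KY, 9196 of 17904 genes were called in either direction at the 56 and 9935 of 17056 at the 70. In WT, 26.0% of all genes were called higher at the 41. At the 65 without Cre WT replicate 3, 9691 of 17063 genes were called in either direction. For Cre P278KY over Cre WT, 14 members were called lower with pool as a term and 7 within pool 1, both against the pool 1 Cre WT libraries. Within pool 1 with library size scaling 2 were called lower, and against the pool 2 Cre WT libraries 17 were called higher. The interaction gave 5 called lower within pool 1. The mouse number in the labels was tried as a replicate block. Pairs of same-numbered libraries from different groups were compared in their deviations from the group means. Their correlation was not over 0.1 in every pair (r from −0.123 to 0.176). Same-numbered libraries within a group were not compared in this way, so their independence was not tested. What the numbers mark is not stated, and they were not used to pair libraries. The replicate block gave 30 members called higher in Cre P278KY over Cre WT (5.36% of all genes), where it compares pool 1 P278KY with pool 2 WT libraries, 69 higher in P278KY (25.4% of all genes) and 70 in WT (27.7%) over NoCre, and 0 in the other comparisons. Among the members named by rule, those whose sign turned with a call on either side were, in Cre P278KY over Cre WT under the replicate block, Rpl27 (0.96), Rpl38 (1.37), Rpl41 (0.97), Rplp1 (1.2), Rps29 (0.99) and Rpsa (0.89), and against pool 2 Rpl38 (1.15) and Rplp1 (1.02). Outside that rule, Rps28 was called in both directions, −0.92 with pool as a term and 1.2 against pool 2 (−0.21 without either). In Cre WT over NoCre WT within pool 2, Rpl17 (−0.032), Rpl38 (−0.41), Rplp1 (−0.44) and Rplp2 (−0.15) were those named by rule, all as log2 fold changes. Members called in neither fit, such as Rpl22, turned as well. Of all members tested, 56 of 80 were above 0 within pool 2, against 77 of 79 in the main fit. With library size scaling within pool 2 it was 79 of 80. The cause was not tested. The alternatives within pools with library size scaling and against pool 2 were chosen after seeing the data. So was leaving out NoCre P278KY replicate 6 and NoCre WT replicate 4 together. It gave 64 members called higher in P278KY and 65 in WT (29.4% of all genes in each). Depth limits members with few reads such as Rps16, Rps27 and Rps26, and 3 Cre P278KY libraries of 1 pool limit the contrast of Cre P278KY with Cre WT and the interaction.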
